A study of Mus with 6 samples.

Results

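A set of 10 brain genes known for genomic imprinting was followed in RNA-seq libraries of mouse basolateral amygdala: Peg3, Peg10, Meg3, Rian, Ndn, Magel2, Snrpn, Nnat, Impact and Zdbf2. They were taken by gene name from the deposited expression table, which lists 54532 genes, and all 10 were found, each in a single row. The 6 libraries came from mice labelled female, 3 of them wild type (WT1, WT2 and WT3) and 3 carrying a knockout of Cntnap4 (KO1, KO2 and KO3), a contactin-associated protein of the neurexin superfamily. The sources used here give neither age nor strain nor how the knockout was made, and leave unsaid whether the libraries are separate animals, so every p-value below measures only how these libraries vary, which could be technical. The series title names Lactobacillus reuteri and fear memory, and no library labelled as treated with the bacterium was analysed here.

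An imprinted gene is transcribed mainly from the copy inherited from 1 parent. DNA methylation laid down in the egg or the sperm sets the parental copies apart. Imprinted genes lie in clusters that share a control region, and many are expressed most strongly in the brain, where the hypothalamus and other regions that serve feeding, growth, social and maternal behaviour are rich in them. Of the 10 genes, Meg3 and Rian are expressed from the maternal copy and the others from the paternal copy. Values per gene do not separate the parental copies, so imprinting itself was not measured here, only the total level.

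Levels are given as FPKM, fragments scaled by gene length and by library depth. Comparison between genes thus depends on the length assigned to each, from 1829 bases for Nnat to 18234 for Rian among the 10. The whole table was tested for a difference between KO and WT with limma on log2(FPKM + 1), over the 13087 genes whose mean reached 1 FPKM, and p-values were adjusted over all of them with a threshold of 0.05. A log2 fold change on that scale is compressed for genes near or below 1 FPKM. Of the 10 imprinted genes, 9 passed the filter and Magel2 did not, with a mean of 0.934 FPKM. Recovered reads, the read numbers that the FPKM values imply, summed to between 15933029 and 17789798 per library. Cntnap4 was at 3.53, 3.90 and 2.15 FPKM in the WT libraries and 1.08, 1.19 and 1.28 in the KO libraries, lower in each KO library than in each WT library (limma log2 fold change -0.92, SE 0.18, adjusted p = 0.302).

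The 6 libraries differed in markers of neighbouring tissue and of other cell types. Excitatory projection neuron markers were present in all of them (Slc17a7, the vesicular glutamate transporter, at 201 to 364 FPKM, and Rspo2, a marker of basolateral neurons, at 2.03 to 4.12). The 7 of that list summed to 416, 426 and 325 in WT1, WT2 and WT3 and 557, 456 and 347 in KO1, KO2 and KO3. All 7 were highest in a KO library and had positive fold changes (51.3% of all genes tested), and 0 passed the threshold. Neurod6 and Tbr1 were higher in each KO library, as were 11.9% of all genes tested. The summed level of 16 hypothalamic markers was 40.2, 28.1 and 5.59 FPKM in WT1, WT2 and WT3 and 2.43, 2.85 and 4.36 in KO1, KO2 and KO3. Trh, the thyrotropin-releasing hormone gene, was at 18.7 and 21.6 in WT1 and WT2 and at 0.308 to 2.02 in the other libraries; without it, the other 15 summed to 21.5, 6.46 and 4.31 in WT1, WT2 and WT3 and 2.06 to 2.34 in KO. Of the 16, 8 were highest in WT1, 1 (Trh) in WT2, 2 (Pomc and Nkx2-1) in WT3 and 4 in a KO library. Of the 16 markers, Hmx3 was listed at 0 in all 6 libraries and 9 others in at least 1 of them, the hormone genes Oxt, Pmch, Hcrt and Ghrh among these. The 8 striatal markers summed to 758 in WT3 and 327 in KO3, against 67.4 to 100.1 in the other libraries. The 8 central amygdala markers summed to 37.1 to 39.9 in WT and 23.7 to 35.9 in KO. Of these, 4 were highest in WT1 or WT2, 3 in WT3 and 1 in a KO library. The 8 interneuron markers summed to 532.5 to 693.1 in WT and 487.4 to 551.2 in KO. Gad1 was higher in each KO library and Sst and Slc32a1 lower (11.9% and 10.1% of all genes tested). The 8 endothelial markers summed to 64.9 to 118.2 in WT and 66.5 to 88.9 in KO. Meningeal markers summed to 74.2 in WT1 and 14.7 to 36.9 in the other libraries, with 8 of 8 highest in WT1, and the 6 of choroid plexus and ependyma to 50.4 in WT1 and 5.68 to 24.4 in the others. Oligodendrocyte markers summed to 252 in WT1 and 491 to 731 in the others. Microglial markers summed to 169 to 227 in WT and 122 to 155 in KO. Of the 8, 5 were lower in each KO library, as were 10.1% of all genes tested, and 0 passed the threshold. All 8 microglial fold changes were negative, as were those of the 8 astrocyte, 8 striatal and 8 meningeal markers. Those of the 8 oligodendrocyte markers were all positive. Over all genes tested, 51.3% were positive.

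**Figure D1:**
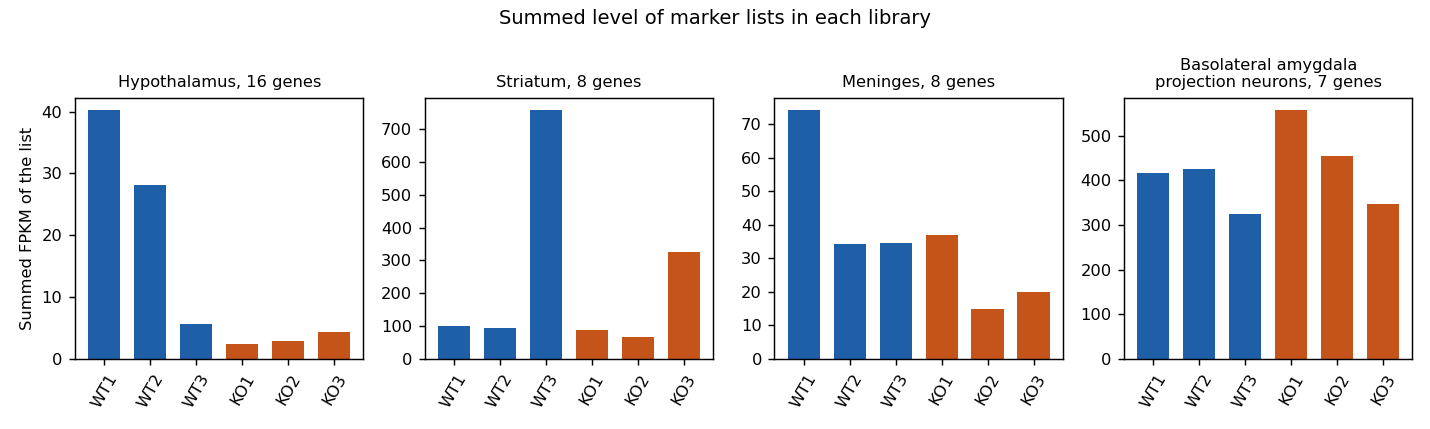
Summed FPKM (vertical axis, from 0) of 4 marker lists in each of the 6 libraries, WT in blue and KO in orange. The hypothalamic sum is 40.2 in WT1 and 28.1 in WT2 and at most 5.59 in the other libraries, and the striatal sum is highest in WT3 (758) and KO3 (327).

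None of the 9 tested imprinted genes passed the threshold: 0 were called, where 0.00764% of all genes tested (1 gene) were. Of the 9, 5 lay above 0 and 4 below 0 in log2 fold change, with a median of 0.02, against 51.3% positive and a median of 0.01 over all genes tested. An unadjusted p under 0.05 was reached by 1, Nnat, lower in KO, as by 7.25% of all genes tested, and by 0 that were higher, beside 7.05% (14.3% in either direction), and voom on the recovered reads called 0 of the 9. Over all genes that count split into 923 higher and 949 lower in KO, or 1224 and 580 with values rescaled to a common sum per library. For 2 of the 9 the genotypes did not overlap in FPKM (22.0% of genes tested): Snrpn was higher in each KO library, as were 11.9% of genes tested, and Nnat lower, as were 10.1%. With 3 libraries a group, the smallest p of an exact permutation test on a single gene is 0.1.

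**Figure D2:**
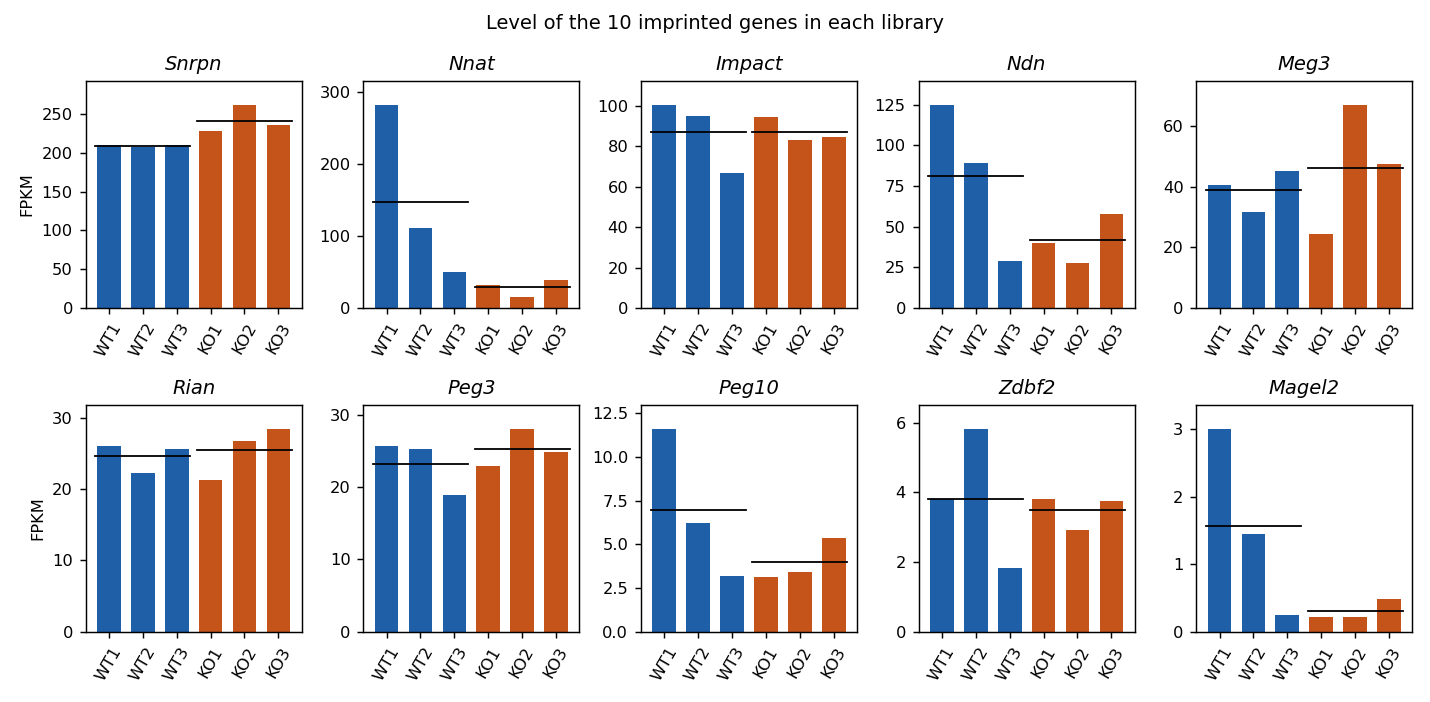
FPKM (vertical axes, from 0, 1 scale per gene) of the 10 imprinted genes in each library, WT in blue and KO in orange, with the group mean as a black line. Nnat, Ndn, Peg10 and Magel2 are highest in WT1 (281, 125, 11.6 and 3.00 FPKM), while Snrpn lies between 208 and 261 in all 6 libraries.

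The 10 genes spanned a wide range of levels. In KO the order ran from Snrpn (241.7 ± 17.4 FPKM, SD, n = 3) through Impact (87.3 ± 6.26), Meg3 (46.4 ± 21.3), Ndn (41.9 ± 15.0), Nnat (28.8 ± 12.1), Rian (25.5 ± 3.71), Peg3 (25.2 ± 2.59), Peg10 (3.96 ± 1.20) and Zdbf2 (3.49 ± 0.49) to Magel2 (0.31 ± 0.15). The ranges of neighbours in that order did not overlap between Snrpn and Impact, Impact and Meg3, Peg3 and Peg10, and Zdbf2 and Magel2, and they overlapped for the other neighbours. In WT, Nnat came second with 147.5 ± 120.0 FPKM behind Snrpn (209.4 ± 1.25), and its range overlapped those of Snrpn and Impact. Ndn (80.9 ± 48.2) stood before Meg3 (39.1 ± 6.99) there, the other genes kept their order, and only Meg3 and Rian, and Peg3 and Peg10, were neighbours whose WT ranges did not overlap. Snrpn was above 99.2% of all genes tested by mean level and Zdbf2 above 31.9%.

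The genes fell apart by how much the WT libraries differed from each other. The highest WT value was 12.4 times the lowest for Magel2, 5.68 times for Nnat, 4.27 times for Ndn, 3.66 times for Peg10 and 3.18 times for Zdbf2, and between 1.01 and 1.5 times for the other 5. By its range of log2 values over the WT libraries, Nnat lay above 99.5% of genes tested, Ndn above 99.0%, Peg10 above 97.8% and Zdbf2 above 95.9%, whereas Snrpn lay above 0.252%. Among the KO libraries the highest value was 2.74 times the lowest for Meg3, 2.54 times for Nnat and at most 2.29 times for each of the others. By the range of log2 values over the KO libraries, Meg3 lay above 98.8% of genes tested and Nnat above 98.5%. Ndn lay above 97.4%, Peg10 above 90.7% and the others above 33.6% to 75.2%.

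**Figure D3:**
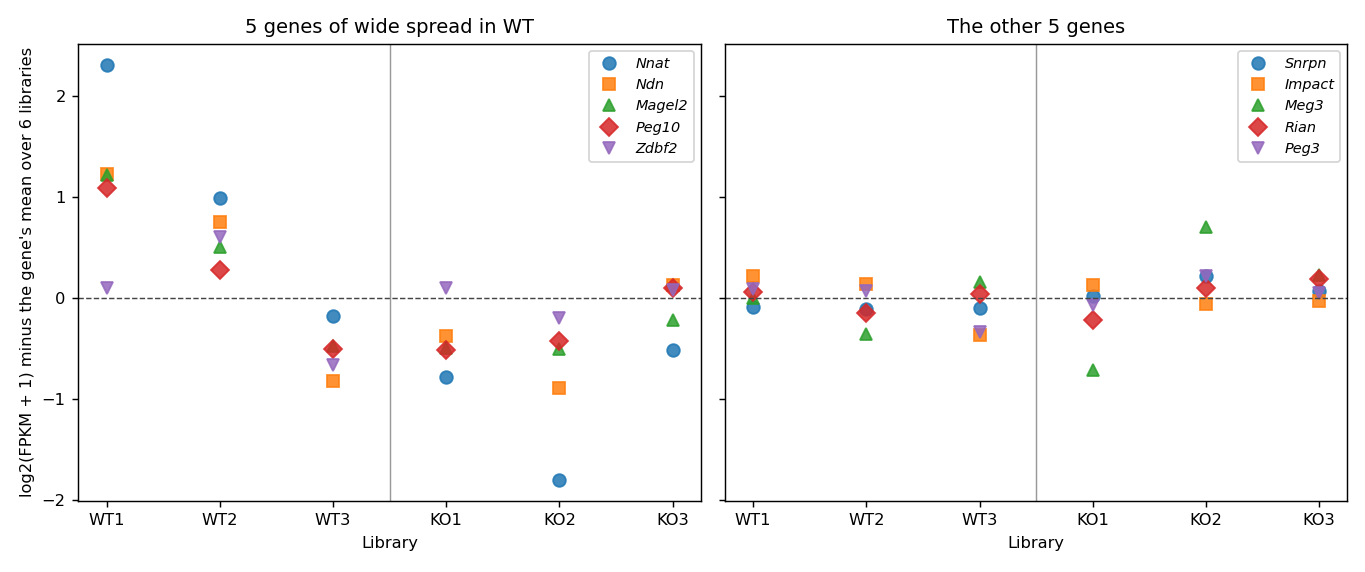
The log2(FPKM + 1) of each gene minus its mean over the 6 libraries (vertical axis) by library, with the 5 genes of widest WT range on the left and the other 5 on the right. Nnat, Ndn, Peg10 and Magel2 lie above their means in WT1 and WT2 and below them in WT3, KO1 and KO2.

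Nnat encodes neuronatin, a small membrane protein of the endoplasmic reticulum in neurons, and had the widest difference between genotypes. It was at 281, 112 and 49.5 FPKM in WT1, WT2 and WT3 and at 32.1, 15.3 and 38.9 in KO1, KO2 and KO3, resting on 9623, 3275 and 1528 recovered reads in WT and 963, 486 and 1172 in KO. Every KO value lay below every WT value, but the lowest WT library, WT3, was nearer to the KO libraries than to WT1. The ratio of means was 0.195, and the log2 fold change was -2.07 (SE 0.62, 95% interval -3.53 to -0.62, limma adjusted p = 0.303). Without WT1 the log2 fold change was -1.44, without WT3 it was -2.68, and without both WT1 and WT2, an alternative added after seeing the data, it was -0.86 (adjusted p = 0.492), where WT3 alone stands for WT and is assumed to vary as the KO libraries do. The WT libraries with the highest Nnat, WT1 and WT2, are those with the highest hypothalamic marker sums (40.2 and 28.1), though without Trh the sum in WT2 (6.46) is close to that in WT3 (4.31), and Pomc and Nkx2-1 are highest in WT3. WT1 also has the highest meningeal, choroid, central amygdala, interneuron and astrocyte sums and the lowest oligodendrocyte, endothelial and neuron sums. The part of these markers in the values of Nnat, and of Ndn, Magel2, Peg10, Dlk1 and Dio3 below, was not tested. In whole tissue, fewer cells of a type and less RNA per cell cannot be told apart.

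The Nnat gene (ENSMUSG00000067786) lies on chromosome 2 from 157560078 to 157562522 on the plus strand (GRCm38), wholly inside Blcap, which is on the minus strand. Blcap, a small membrane protein gene with an imprinted transcript in brain, was at 55.7, 36.6 and 25.4 FPKM in the WT libraries and 28.6, 25.4 and 26.8 in the KO libraries, so WT1 was highest for both genes and the genotypes overlapped for Blcap. Its log2 fold change came to -0.46 (SE 0.25, limma adjusted p = 0.434), with -0.17 without WT1 and -0.72 without WT3. The ratio of Nnat to Blcap within a library, which does not depend on the scaling between libraries, was 5.05, 3.05 and 1.95 in the WT libraries and 1.119, 0.602 and 1.45 in the KO libraries. The sources used here do not say whether counting used strand, so reads from the overlap of these 2 genes cannot be assigned between them.

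Ndn and Magel2 are neighbours on chromosome 7, 26.7 kb apart, in the region whose paternal loss causes Prader-Willi syndrome in people, and both encode proteins of the MAGE family. Ndn (ENSMUSG00000033585; 62346569 to 62350262) encodes necdin, which restrains growth and promotes survival in neurons. It was at 125, 89.0 and 29.1 FPKM in the WT libraries and 40.2, 27.8 and 57.6 in the KO libraries. WT1 and WT2 were above all 3 KO libraries and WT3 was within the KO range, so the groups overlapped. The log2 fold change was -0.76 (SE 0.52, 95% interval -1.99 to 0.46, limma adjusted p = 0.508). It was -0.34 without WT1, -1.37 without WT3 and -0.51 without KO2, and with WT1 and WT2 left out it was 0.45.

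Magel2 (ENSMUSG00000056972; 62377010 to 62381640), whose protein acts in the recycling of membrane proteins from endosomes, was the lowest of the 10. It was at 3.00, 1.44 and 0.243 FPKM in the WT libraries and 0.223, 0.212 and 0.485 in the KO libraries, from 260, 107 and 19 recovered reads in WT and 17, 17 and 37 in KO. The order of the WT libraries was that of Ndn, with WT3 again inside the KO range. Magel2 was below the filter and had no p-value in the fit; with no filter the log2 difference was -0.82 (SE 0.41, limma adjusted p = 0.612). Both genes lie inside Gm32061, a long noncoding RNA gene on the opposite strand that was listed at 0 in all libraries.

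Snrpn lies 2206 kb before Ndn on the same chromosome (ENSMUSG00000102252; 59982495 to 60140219, minus strand) and encodes SmN, a core protein of the splicing ribonucleoproteins in neurons. It showed the narrowest spread of the 10. Its level was 211, 208 and 209.7 FPKM in the WT libraries and 228, 261 and 236 in the KO libraries, so that every KO library was above every WT library. As a share of the recovered reads, WT1 (8502 of 17789798) was above KO1 (8077 of 17032578). The lack of overlap thus depends on the scaling of the deposited FPKM. The difference was small, with a ratio of means of 1.15 and a log2 fold change of 0.20 (SE 0.10, 95% interval -0.04 to 0.45, limma adjusted p = 0.402). Snurf, the upstream reading frame of the same transcript, was listed at 0 in all 6 libraries and overlaps Snrpn on the same strand, as does Gm38393 at a mean of 3.05 FPKM; the sources used here do not say how reads shared by them were counted. The summed level of 8 neuron markers was 857 to 965 FPKM in the WT libraries and 1050 to 1122 in the KO libraries. Snap25 and Syt1 carried that gap in the sum, since the other 6 summed to 412 to 477 in WT and 426 to 456 in KO. Gene by gene, Snap25, Syt1 and Elavl4 were higher in each KO library, as were 11.9% of all genes tested. Map2 was lower in each KO library, as were 10.1%. The part of neuron, projection neuron and microglial markers in the values of Snrpn, Snhg14 and Ube3a was not tested.

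Further along that domain, Snhg14 and Ube3a also had every KO value above every WT value, as did 11.9% of all genes tested. Snhg14, the long host transcript of small nucleolar RNAs that runs antisense into Ube3a, was at 1.61, 2.12 and 2.05 FPKM in the WT libraries and 2.51, 2.98 and 2.62 in the KO libraries (log2 fold change 0.34, SE 0.12, limma adjusted p = 0.318). Ube3a, the ubiquitin ligase of Angelman syndrome, expressed from the maternal copy in neurons, was at 5.02, 5.24 and 4.98 in the WT libraries and 5.93, 5.87 and 6.0 in the KO libraries (log2 fold change 0.19, SE 0.08, limma adjusted p = 0.362). Neither passed the threshold, and the ends of the 2 genes overlap on opposite strands. The ratio of Ndn to Snrpn was 0.592, 0.428 and 0.139 in the WT libraries and 0.176, 0.106 and 0.244 in the KO libraries, with WT3 inside the KO range. The ratio of Ube3a to Snhg14 was 2.42 to 3.12 in WT and 1.97 to 2.37 in KO, without overlap. Mkrn3 and Peg12, beyond Magel2, were low, with 14 to 22 and 0 to 6 recovered reads per library.

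**Figure D4:**
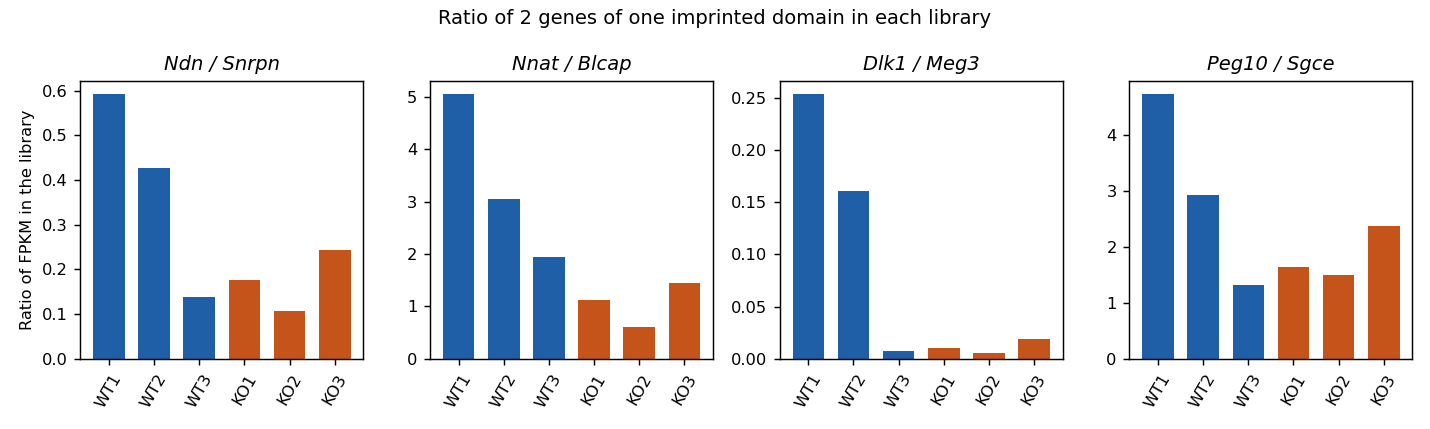
Ratio of the FPKM of a pair of genes of the same imprinted domain in each library (vertical axes, from 0), WT in blue and KO in orange; the pairs were chosen with values known. All 4 ratios are highest in WT1 and second highest in WT2, and of these 4 only Nnat over Blcap (1.95 to 5.05 in WT, 0.602 to 1.45 in KO) has no overlap between the genotypes.

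Peg10 derives from a retrotransposon and encodes a protein with capsid-like and protease parts. The gene (ENSMUSG00000092035) lies on chromosome 6 from 4747306 to 4760517. It was at 11.6, 6.20 and 3.16 FPKM in the WT libraries and 3.15, 3.40 and 5.34 in the KO libraries, so WT1 and WT2 were above all KO libraries and WT3 was at the level of KO1. The log2 fold change was -0.57 (SE 0.38, 95% interval -1.47 to 0.33, limma adjusted p = 0.505), -0.17 without WT1, -0.97 without WT3 and 0.23 with both WT1 and WT2 left out. Sgce, the sarcoglycan gene that shares its start region, was at 2.12 to 2.45 FPKM in the WT libraries and 1.93 to 2.27 in the KO libraries, with no such peak in WT1. Ppp1r9a, which encodes the actin-binding protein neurabin, ran the other way, with its lowest value in WT1 (15.4, 22.0 and 29.4 in WT; 29.8, 26.1 and 29.9 in KO; log2 fold change 0.39, SE 0.21, limma adjusted p = 0.429; 0.16 without WT1 and 0.60 without WT3). Calcr, the calcitonin receptor, was at 1.76 FPKM in WT1, 0.351 in WT2, 0.0454 in WT3 and at most 0.155 in KO, and Asb4 was at 0.0929 to 0.407 over all libraries.

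Meg3 and Rian are long noncoding RNAs of the Dlk1-Dio3 domain on chromosome 12, 32.2 kb apart and both on the plus strand; Rian hosts a row of small nucleolar RNAs. Meg3 (ENSMUSG00000021268; 109541001 to 109571726) was at 40.5, 31.6 and 45.3 FPKM in the WT libraries and 24.4, 67.0 and 47.7 in the KO libraries. The KO libraries included both the lowest and the highest value, and the log2 fold change of 0.14 (SE 0.34, 95% interval -0.66 to 0.95, limma adjusted p = 0.857) went to -0.18 without KO2 and to -0.0015 without WT2. Rian (ENSMUSG00000097451; 109603940 to 109661716) was at 26.0, 22.3 and 25.5 in the WT libraries and 21.3, 26.7 and 28.4 in the KO libraries, a narrower range that overlapped between the genotypes. Its log2 fold change was 0.04 (SE 0.13, 95% interval -0.27 to 0.35, limma adjusted p = 0.896). Rian overlaps 19 annotated genes, all on its own strand and nearly all of them small RNAs. The ratio of Rian to Meg3 was 0.563 to 0.707 in WT and 0.399 to 0.873 in KO, highest in KO1. Mirg, the microRNA host transcript after Rian, was at 1.22 to 1.58 FPKM in the WT libraries and 1.02 to 1.74 in the KO libraries.

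Paternally expressed protein-coding genes of that domain are Dlk1, Dio3 and Rtl1. Dlk1, a membrane ligand related to the Notch ligands, was at 10.3, 5.07 and 0.325 FPKM in the WT libraries and 0.248, 0.387 and 0.890 in the KO libraries. WT1 and WT2 stood above all others and WT3 was inside the KO range (log2 fold change -1.60, SE 0.71, limma adjusted p = 0.362; -0.93 without WT1, -2.48 without WT3 and 0.16 with WT1 and WT2 left out). Dio3, the deiodinase that inactivates thyroid hormone, was at 3.40, 6.09 and 0.642 in the WT libraries and 0.240, 0.284 and 0.299 in the KO libraries, with no overlap. Its log2 fold change came to -1.54 (SE 0.48, limma adjusted p = 0.303), from 8 to 198 recovered reads per library. At these low levels it was -2.76 with a pseudocount of 0.1 and -3.07 with voom, and it was -0.37 with WT1 and WT2 left out. Rtl1, a retrotransposon-derived gene that lies antisense within the domain, was at 1.21, 0.481 and 0.550 in the WT libraries and 0.287, 0.580 and 0.544 in the KO libraries, so only WT1 stood above the others. The ratio of Dlk1 to Meg3 was 0.253 and 0.161 in WT1 and WT2 and 0.00579 to 0.0187 in the other libraries.

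**Figure D5:**
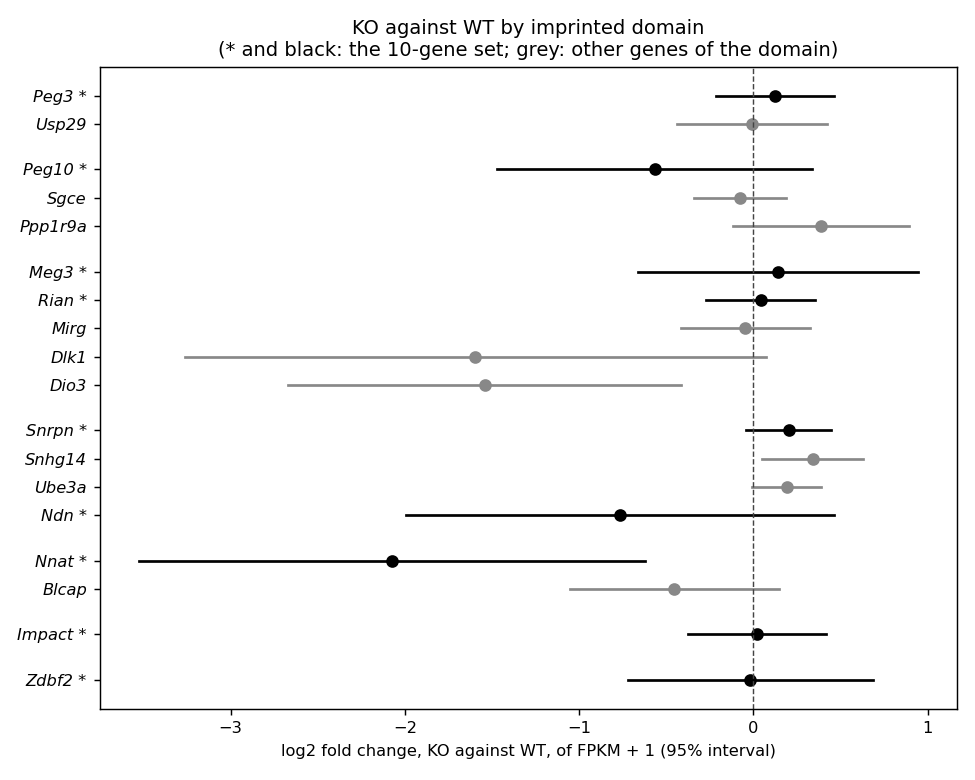
The log2 fold change of KO against WT (horizontal axis, on FPKM + 1; points) with its 95% interval (lines) for the 9 tested genes of the set (black, with an asterisk) and the tested genes of the same domains (grey). Nnat lies at -2.07, and Dlk1 and Dio3 lie far to the left of Meg3 and Rian; none passed the adjusted threshold.

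Peg3, Impact and Zdbf2 stand apart from each other on chromosomes 7, 18 and 1. Peg3 (ENSMUSG00000002265; 6703892 to 6730431) encodes a large zinc finger protein linked to maternal care. It was at 25.6, 25.2 and 18.9 FPKM in the WT libraries and 22.9, 28.0 and 24.8 in the KO libraries, and WT3 was the lowest of the 6. The log2 fold change was 0.12 (SE 0.14, 95% interval -0.22 to 0.46, limma adjusted p = 0.694) and -0.01 without WT3. Usp29, a ubiquitin protease gene that starts beside Peg3 on the other strand, was at 1.34 to 2.77 FPKM in the WT libraries and 1.83 to 2.00 in the KO libraries (log2 fold change -0.01, SE 0.18, limma adjusted p = 0.989). Zim1, a zinc finger gene of the same domain, was at 1.47, 0.903 and 0.256 in the WT libraries and 0.181, 0.328 and 0.458 in the KO libraries, below the filter, and again WT1 and WT2 were above all KO libraries. Zfp264 had 0 to 2 recovered reads.

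Impact (ENSMUSG00000024423; 12972252 to 12992948) encodes a protein that restrains the amino acid sensing kinase GCN2 in neurons. It was at 100.3, 95 and 66.7 FPKM in the WT libraries and 94.4, 82.9 and 84.5 in the KO libraries, and the KO libraries lay between the WT values. The means were 87.3 ± 18.1 in the WT libraries and 87.3 ± 6.26 in the KO libraries, and the log2 fold change was 0.02 (SE 0.17, 95% interval -0.38 to 0.41, limma adjusted p = 0.967). Zdbf2 (ENSMUSG00000027520; 63273265 to 63314576), a zinc finger gene linked to growth and feeding of the newborn mouse, was at 3.82, 5.82 and 1.83 FPKM in the WT libraries and 3.81, 2.92 and 3.74 in the KO libraries. Here WT2, not WT1, was the highest library, and WT3 the lowest. The log2 fold change was -0.02 (SE 0.30, 95% interval -0.72 to 0.68, limma adjusted p = 0.983). Gpr1, a receptor gene beside Zdbf2, was at 0.332 to 0.475 in the WT libraries and 0.537 to 0.632 in the KO libraries on 14 to 27 recovered reads.

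Other imprinted genes were described from a list of 44, 18 in the domains above and 26 elsewhere. Of these, 25 passed the filter, 12 of them above and 13 below 0 in log2 fold change (median -0.01), and 0 passed the threshold, with 4 at an unadjusted p under 0.05 (14.3% of all genes tested were) and 0 called by voom. In 4 the KO values were all above WT (Peg13, Copg2, Ube3a and Snhg14) and in 1, Dio3, all below, beside 11.9% and 10.1% of all genes tested. Peg13, a noncoding RNA inside Trappc9, was at 49.2, 80.5 and 68.4 FPKM in the WT libraries and 97.4, 99.1 and 90.2 in the KO libraries (log2 fold change 0.55, SE 0.18, limma adjusted p = 0.303). Copg2, a coat protein gene of Golgi vesicles, was at 15.5 ± 0.37 and 17.6 ± 0.96, a ratio of 1.14.

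Among those with lower KO means, Cdkn1c, an inhibitor of the cell cycle, was at 5.27, 3.89 and 3.28 FPKM in the WT libraries and 2.09, 1.5 and 3.57 in the KO libraries (log2 fold change -0.63, SE 0.24, limma adjusted p = 0.329). H13, a signal peptide peptidase gene, was at 8.20 ± 1.43 and 6.65 ± 0.12, Gnas, of the stimulatory G protein, at 11.6 ± 3.37 and 8.27 ± 1.42, and Grb10, a growth factor receptor adaptor, at 6.77 ± 2.11 and 5.12 ± 0.37, all with overlap. With WT1 and WT2 left out the log2 fold changes of H13, Gnas and Grb10 were 0.01, 0.08 and 0.15, and that of Cdkn1c was still negative. The placental genes H19 and Phlda2 had 0 to 2 and 0 recovered reads, and Igf2, which marks meninges and choroid plexus in brain, was at 0.0636 to 0.191 FPKM.

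Genes that keep or erase methylation at imprinted regions were taken as a list of 16, of which 10 passed the filter, 8 above and 2 below 0 in log2 fold change (median 0.16), where 51.3% of all genes tested were above 0. Of these, 0 passed the threshold, 1 was at an unadjusted p under 0.05 (14.3% of all genes tested), 1 did not overlap between genotypes (22.0%) and voom called 0. Zfp445, a zinc finger protein that guards imprints, was at 13.2, 14.8 and 17.2 FPKM in the WT libraries and 17.0, 20.8 and 18.7 in the KO libraries (log2 fold change 0.31, SE 0.13, limma adjusted p = 0.342), overlapping by a single library. Smchd1, a chromatin protein of the inactive X and of imprinted clusters, was at 1.80 ± 0.16 and 2.28 ± 0.07 with no overlap (limma adjusted p = 0.377). Dnmt1, the maintenance DNA methyltransferase, was at 7.68 ± 1.21 and 9.28 ± 1.14, and the demethylation enzymes Tet2 and Tet3 were at 1.55 ± 0.46 and 3.71 ± 1.13 in the WT libraries and 2.00 ± 0.36 and 4.60 ± 0.83 in the KO libraries. Ctcf, the insulator protein, was at 14.4 ± 0.80 and 15.4 ± 0.25. Dppa3 and Zfp42, genes of germ and stem cells, were listed at 0 in all libraries.

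Genes of like pattern were sought for the 4 imprinted genes with the largest SD of log2(FPKM + 1) over the 6 libraries, which were Nnat, Ndn, Magel2 and Peg10. Among 11522 protein-coding genes tested, likeness was the root mean square difference between log2 values centred on each gene's mean, over the 6 libraries. Nearest to Nnat were Hpcal1, a neuronal calcium sensor (difference 0.37), Nr2f2, the transcription factor COUP-TFII (0.39), and Baiap3, a protein of dense-core vesicle traffic (0.39). Hpcal1 was at 153, 68.0 and 20.2 FPKM in the WT libraries and 21.6, 10.7 and 13.2 in the KO libraries, and Nr2f2 at 15.5, 7.96 and 2.28 and at 2.40, 1.07 and 1.79. For Ndn they were Tmem255a (0.20), the calcium-binding protein gene Calb2 (0.28) and the neuropeptide Y receptor gene Npy2r (0.29). Magel2 was nearest to Aldh3b2 (0.11), Cdh4 (0.11) and Plpp4 (0.14), and Peg10 to Cd24a (0.13), Magee2 (0.15) and Amigo2 (0.15). All 12 of these genes were highest in WT1 and second highest in WT2, as are the 4 imprinted genes they were matched to. That order follows from how they were picked and is no separate result. Of all genes tested, 24.9% were highest in WT1.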

How the data were processed

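The deposited table held FPKM values for 54532 Ensembl genes in 6 libraries; its header also gives each gene's name, coordinates, length and biotype. The submitters' processing notes name GRCm38 and mm10. Aligner, counter, annotation version and strandedness: not given in the sources used here. Per the labels' protocols, total RNA from a column kit went into a SMARTER library kit. FPKM times gene length came out as a whole number of equal steps in 100% of values (within 0.01 of a read), and these are the recovered reads. The library size that the FPKM values imply was between 0.964 (KO1) and 1.05 (WT1) times the summed recovered reads.

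KO was compared with WT in limma 3.58.1 (R 4.3.3; linear model on log2(FPKM + 1), empirical Bayes with variance trend, two-sided, Benjamini-Hochberg over the 13087 genes of mean FPKM at least 1). Adjusted p-values and 95% intervals come from this fit. The marker sums without Trh, or without Snap25 and Syt1, were chosen after seeing the data. The functions were also run on simulated data whose libraries did not differ in tissue. That run does not show how they perform on these libraries. Alternatives were other pseudocounts, filters and scalings, voom, sample weights, a replicate block and left-out libraries.

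The 10 genes and the lists were chosen with earlier results of these data known. A marker gene is not reported here and was left out of its list. The rule for named genes took the 10, all 18 listed genes of their domains, the 6 of smallest p in each of the other 2 lists, and 3 genes of nearest pattern for each of 4 of the 10.

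Libraries of equal number deviated from their group means together across genes (correlations of 0.17, 0.15 and 0.33 for numbers 1, 2 and 3), all above the 0.1 taken as the bar for pairing. WT2 and KO1, of unlike number, reached 0.28, so passing that bar does not show that equal numbers are pairs. The labels do not say what equal numbers share. The main fit was therefore unpaired, and the fit with a replicate block is given below as an alternative.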

Additional observations from a re-analysis of the deposited data

How the results depend on the processing

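None of the 9 tested imprinted genes passed in any alternative run (up to 18 a gene), the replicate block included, where their count was 0 and Nnat had an adjusted p of 0.221; the block changed no call among the genes named. Over all genes, 1 passed; 0 did with no filter, quantile normalization, no variance trend, the replicate block, both libraries numbered 3 left out, or WT1 and WT2 left out (chosen after seeing the data), and 0 to 9 did with 1 library left out (9 without WT3). The count at an unadjusted p under 0.05 was 1219 with a filter of 5 FPKM (fewer genes tested), 2852 with sample weights and 879 (without KO2) to 2414 (without WT3) with 1 library left out, with 1245 without WT1. The median log2 fold change of all genes was 0.055 with rescaled values and -0.0085 with voom, that of the other imprinted genes 0.21 without WT1 and WT2, and that of the methylation genes 0.080 with no filter (more genes tested). For the other changes the cause was not tested.

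Nnat and Snrpn kept their sign in all 18 alternatives, with ranges of -2.94 to -0.86 and 0.15 to 0.27. Without WT1 and WT2 the log2 fold change had the other sign for Peg10 (0.23), Ndn (0.45), Zdbf2 (0.66), Usp29 (0.31), Dlk1 (0.16), Blcap (0.083), H13 (0.011), Gnas (0.080), Grb10 (0.15), Meg3 (-0.081), Rian (-0.012) and Ppp1r9a (-0.042). Without both libraries numbered 3 it was -0.0043 for Peg3, -0.012 for Rian and -0.14 for Impact. Sample weights gave -0.084 for Impact, 0.00098 for Usp29 and 0.13 for Mirg. Zdbf2 and Usp29 were at 0.0073 and 0.0066 with a pseudocount of 0.1 and at 0.020 and 0.026 with rescaled values, and Usp29 at 0.0082 with quantile normalization. With 1 library left out the ranges were -0.013 to 0.20 for Peg3, -0.18 to 0.53 for Meg3, -0.039 to 0.16 for Rian, -0.16 to 0.13 for Impact, -0.36 to 0.28 for Zdbf2, -0.17 to 0.18 for Usp29 -0.16 to 0.064 for Mirg, -0.66 to -0.28 for Gnas, -0.54 to -0.13 for Grb10, -0.39 to -0.16 for H13, 0.36 to 0.71 for Peg13, 0.14 to 0.35 for Dnmt1, 0.11 to 0.37 for Tet2 and 0.13 to 0.45 for Tet3. Magel2, Zim1 and Calcr rest on few recovered reads, which limits their precision.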
